A study of Mus musculus with 12 samples.

Results

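Small nucleolar RNAs (snoRNAs), Cajal body RNAs, the RNA components of RNase P and RNase MRP and a few small nuclear RNAs were examined in the mPFC of mice after chronic social defeat (CSD). A gene was taken where an array probe set was annotated to it alone and its symbol starts with Snora, Snord, Scarna, Rprl, Rnu or Rmrp. The annotation held 62 such genes, and 56 of them had at least 1 of 12 values above system noise, set at a log2 value of 5.75, the 20th percentile of all values. The 56 comprised 20 Snora, 27 Snord, 3 Scarna, 2 Rprl and 3 Rnu genes and Rmrp, of 17656 named genes measured in all.

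The mice were wild type males of the C57BL/6 strain, adults of an age that the sources used here do not give. The 6 homecage (HC) mice stayed in group housing. The 6 CSD mice lived beside an aggressive CD-1 male and were defeated for 5 min a day over 14 days, and tissue was collected 24 h later from saline-perfused brains. Each mouse gave 200 ng of total RNA for 1 Affymetrix Mouse Gene ST array, which reads a gene through short probes. The CSD mice had been selected by their behaviour in the study, so that the group represents animals that responded to defeat. No 2 arrays share a mouse, and precision is limited by how many arrays there were.

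SnoRNAs guide the chemical modification of other RNAs. H/ACA box RNAs (Snora) direct the conversion of uridine to pseudouridine and C/D box RNAs (Snord) direct methylation of the ribose, mostly on ribosomal RNA, while Cajal body RNAs (Scarna) guide the same reactions on spliceosomal RNAs. In mammals most of them lie in introns of host genes and are released when the host transcript is spliced, whereas the RNAs of RNase P, which trims the leader of precursor tRNAs, and of RNase MRP, which cleaves precursor ribosomal RNA, have their own RNA polymerase III promoters. The imprinted C/D families Snord115 and Snord116 are well known from neurons, but no probe set kept here names a member of either alone.

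The array table and the reference tables used here hold no sequence of the 56 RNAs themselves. The promoters of 3 of their host genes are shown, because the RNAs inside these hosts had 5 of the 7 differences with a higher CSD mean and an unadjusted p under 0.05 described below. Snhg3, a non-coding host gene, contains Snora73a and Snora73b, Snhg12 contains Snora16a and Snora44, and Snhg10 contains Scarna13. Each run is 300 bases of the gene's own strand, 5′ to 3′, from RefSeq on GRCm38.p6, with the annotated start at base 251. Capitals mark matches to the motifs listed after them.
Snhg3, chr4:132353637-132353936, minus strand: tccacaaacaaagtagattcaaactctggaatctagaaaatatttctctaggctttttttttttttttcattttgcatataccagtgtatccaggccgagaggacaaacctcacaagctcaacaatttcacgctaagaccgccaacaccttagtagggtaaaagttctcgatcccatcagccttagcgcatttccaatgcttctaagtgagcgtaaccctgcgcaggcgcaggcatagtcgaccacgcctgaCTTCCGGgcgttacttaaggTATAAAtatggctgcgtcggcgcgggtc
Snhg12, chr4:132308428-132308727, plus strand: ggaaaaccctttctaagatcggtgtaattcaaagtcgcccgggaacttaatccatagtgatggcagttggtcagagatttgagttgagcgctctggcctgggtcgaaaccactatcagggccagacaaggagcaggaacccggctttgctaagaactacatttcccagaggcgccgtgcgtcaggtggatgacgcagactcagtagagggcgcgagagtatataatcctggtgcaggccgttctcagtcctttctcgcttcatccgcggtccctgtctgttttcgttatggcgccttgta
Snhg10, chr12:105032230-105032529, minus strand: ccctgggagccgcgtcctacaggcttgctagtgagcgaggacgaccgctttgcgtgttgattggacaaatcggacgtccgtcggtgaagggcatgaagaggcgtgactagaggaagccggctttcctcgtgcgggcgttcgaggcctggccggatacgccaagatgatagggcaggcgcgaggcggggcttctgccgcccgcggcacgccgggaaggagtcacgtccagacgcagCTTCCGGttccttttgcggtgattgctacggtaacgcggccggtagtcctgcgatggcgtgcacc
Both strands were searched for the TATA box motif TATAAA, the E box motif CACGTG, the core CCGGAAG that ETS factors bind and the cyclic AMP response motif TGACGTCA. CCGGAAG matched the opposite strand at bases 253 to 259 of Snhg3 and at bases 236 to 242 of Snhg10, and 8.86% of 32841 mouse promoter windows of this length held it. TATAAA matched Snhg3 at bases 273 to 278, after the annotated start, and 13.6% of windows held it. The E box and cyclic AMP response motifs, held by 7.15% and 1.79% of windows, matched none of the 3, and Snhg12 held no match. Host genes of snoRNAs often start within a run of pyrimidines. The longest run within 20 bases of the start was 9 bases in Snhg12, 8 in Snhg10 and 5 in Snhg3, and runs at least as long stood in 10.9%, 16.4% and 58.4% of windows. A match or run of letters is a description of the window.

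Scarna13 also encloses the hairpin of a microRNA, Mir3069, whose 65 bases lie wholly inside the 275 bases of Scarna13 in RefSeq. Both annotations cover the same stretch of the chromosome, by coordinates without regard to strand. The hairpin is shown with its mature microRNA parts in capitals.
Mir3069, chr12:105031077-105031141, minus strand, GRCm38.p6: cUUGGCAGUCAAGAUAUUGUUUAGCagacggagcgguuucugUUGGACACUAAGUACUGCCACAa
No probe set names Mir3069 alone.

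No member passed an adjusted p under 0.05 with a fold change of at least 1.2 in limma, a linear model that pools the spread of many probe sets, and none did with the methods' t-test. The smallest adjusted p of a member in limma was 0.216, that of Rprl2. Of all 29838 probe sets kept, 0 passed the adjusted limits in limma, so the lack of calls was not particular to the members. With the same fold limit and an unadjusted p under 0.05, limma placed 5 of 56 members higher in CSD (8.93%) and 0 lower. These were Rprl1, Rprl2, Scarna13, Snora73b and Snora16a. Over the 17656 named genes 0.0793% were higher and 0.6% lower past these limits, over all 29838 probe sets kept 0.741% and 0.62%, and over the 9295 probe sets with no gene listed 2.17% and 0.71%. The share of members that were higher was above all 3 backgrounds, with limits. Rprl1 and Rprl2 may not be separate measurements, as described below. Members also varied more among HC mice than named genes did (median SD 0.160 against 0.104). The count of higher members ran from 1 to 6 with each array left out in turn. A count of 0 lower among 56 members cannot be set apart from backgrounds this small. Without the fold limit, Snora44 and Snora73a joined the higher members (7 of 56, 12.5%) and Snord42a was the 1 lower member, against 1.89% higher and 6.52% lower among named genes, 3.35% and 5.08% among all probe sets kept, and 6.08% and 2.8% among those with no gene listed. By the methods' t-test 4 of the 5 were higher past both limits, Snora16a not among them.

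The medians of the families are given as a description. Over all 56 members the median difference (CSD minus HC, log2) was 0.02, with 37 means higher and 19 lower, while the median over named genes was -0.01, with 7566 higher and 10090 lower. The 20 Snora genes had a median of 0.06 and a range from -0.14 to 0.35, with 15 means higher. The 27 Snord genes had a median of -0.01, with 13 means higher and 14 lower, and ranged from -0.20 to 0.07. The 3 Scarna and 3 Rnu genes had medians of 0.02 and 0.03 with all means higher, the 2 Rprl genes 0.27, and Rmrp 0.07. Members are not replicates, so no test was made between families.

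**Figure D1:**
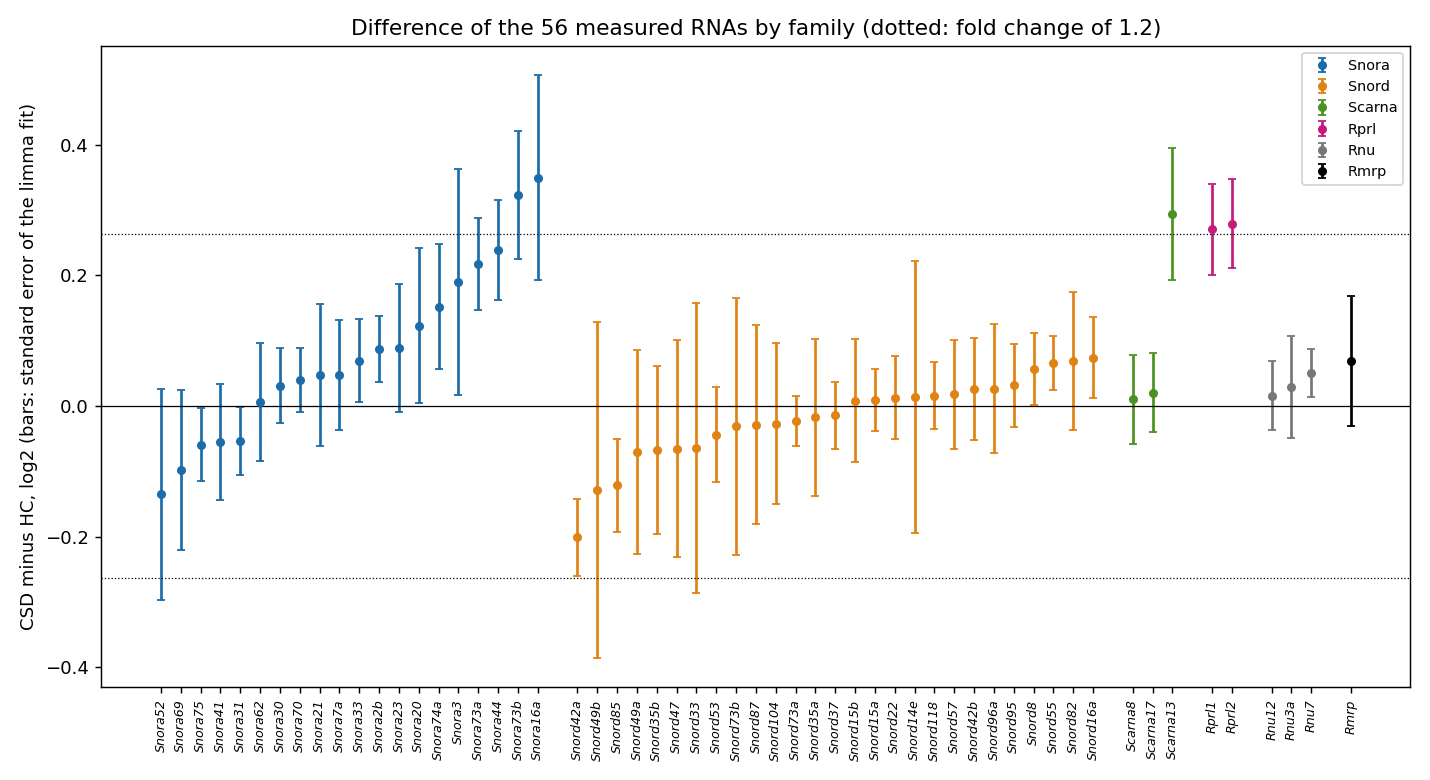
Difference between CSD and HC means (log2) of each of the 56 measured RNAs, coloured by family and ordered within it, with bars for the standard error of the limma fit and dotted lines at a fold change of 1.2. The RNAs beyond the upper line are Snora16a, Snora73b, Scarna13, Rprl1 and Rprl2, and no RNA lies beyond the lower one.

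In bulk tissue, fewer cells of a type and less RNA per cell cannot be told apart. The prefrontal tissue showed excitatory neuron markers at log2 means from 10.5 to 13.2, with a median difference of 0.01 over 4 genes. Medians were -0.11 over 3 inhibitory neuron, -0.05 over 4 astrocyte, -0.06 over 4 microglia and -0.16 over 3 striatal neuron markers. None of these markers passed the unadjusted p with the fold limit. The 9 measured markers of myelinating oligodendrocytes of 10 listed were all lower in CSD past the unadjusted limits, with a median of -0.58, and the log2 of their summed level ran from 13.50 to 14.04 in HC and from 12.99 to 13.49 in CSD arrays. The part of this difference in the values of the small RNAs was not tested. Array medians lay between 7.50 and 7.69 and correlations within a group between 0.991 and 0.996, and HC replicates 2 and 6 had the lowest quality weights in limma, 0.259 and 0.397.

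Rprl1 and Rprl2 are genes annotated as RNase P RNA-like, relatives of Rpph1, the RNA of RNase P itself. They were the only members whose groups did not overlap. Non-overlap with CSD on top was found in 14 of all named genes (0.0793%) and with CSD below in 165 (0.935%). Rprl1 ran from 8.22 to 8.60 on the HC arrays (median 8.49) and from 8.61 to 8.80 on the CSD arrays (median 8.72). Every CSD array stood above every HC array, though the nearest HC and CSD values were almost equal, and HC replicates 2 and 6 were the lowest. The means were 8.44 ± 0.16 and 8.71 ± 0.07 (SD, n = 6 each), a difference of 0.27 (SE 0.069, adjusted p = 0.247 in limma, exact permutation p = 0.00216, two-sided, the smallest that 6 against 6 arrays can give).

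Rprl2 ran from 9.34 to 9.71 in HC (median 9.51) and from 9.72 to 9.93 in CSD mice (median 9.77). Again HC replicates 2 and 6 were lowest, and the highest HC array lay just under the lowest CSD array. The difference was 0.28 (SE 0.068, adjusted p = 0.216 in limma, exact permutation p = 0.00216). Without HC replicate 2 the differences of Rprl1 and Rprl2 were 0.23 and 0.25, without HC replicate 6 they were 0.24 and 0.24, and without CSD replicate 8 both were 0.25, each under the fold limit with unadjusted p from 0.003 to 0.005 in limma. For Rprl1 alone the fold limit was also missed without CSD replicate 7 and without CSD replicate 9, at 0.26 each. With HC replicates 2 and 6 both left out, an alternative chosen after seeing the data, the differences were 0.17 and 0.19 (unadjusted p = 0.004 and 0.006 in limma).

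**Figure D2:**
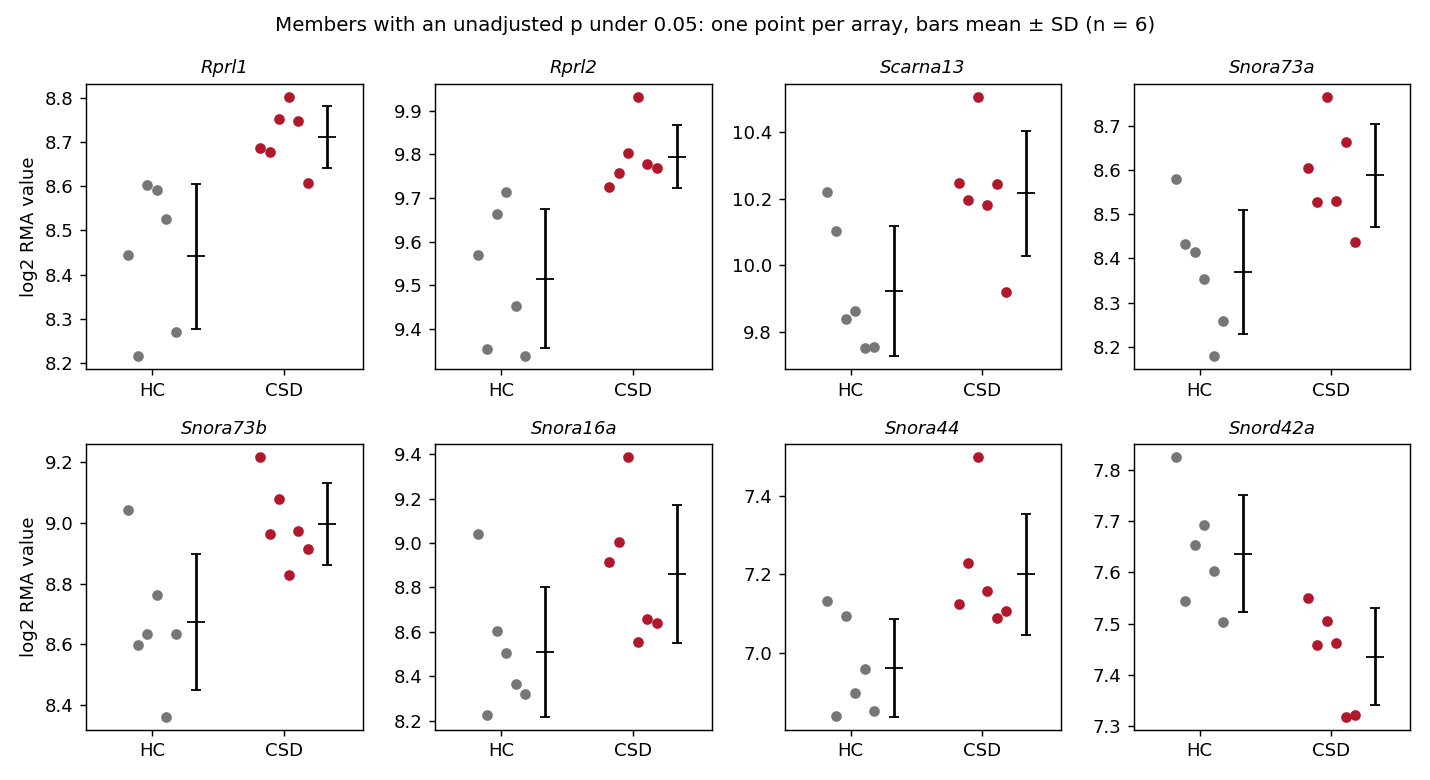
Log2 RMA values of the 8 members with an unadjusted p under 0.05 in limma, 1 point per array, with the mean ± SD of 6 arrays beside each group and a separate vertical axis for each RNA. Only in Rprl1 and Rprl2 do the HC and CSD points not overlap, and Snord42a is the 1 RNA with a lower CSD mean.

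The likeness of Rprl1 and Rprl2 was close over the 12 arrays, with a Pearson r of 0.94 between them, as a description of values that share the arrays, the group difference and the same kind of RNA. Both RNAs are 238 bases long in RefSeq, and whether their probes tell them apart from each other or from Rpph1 is uncertain, so that the pair may not be 2 separate measurements. After Rprl2, the named genes whose values followed Rprl1 most closely were Cabp4, which encodes a calcium-binding protein (r = 0.879), 5730507C01Rik (0.857), Aldoart1 (0.834) and Prss51 (0.833). Those most like Rprl2 were Rprl1, 5730507C01Rik (0.900), Gnmt, which encodes a glycine methyltransferase (0.890), Ushbp1 (0.853) and Rn7sk, the RNA that holds back a transcription elongation factor (0.823).

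Rpph1 had log2 values from 12.87 to 13.20 in HC and from 13.15 to 13.27 in CSD mice, which overlap. Its means were 13.08 ± 0.11 and 13.19 ± 0.05 (SD, n = 6 each), a difference of 0.11 (adjusted p = 0.612 in limma, exact permutation p = 0.0346). Rmrp, the RNA of RNase MRP, ran from 11.45 to 12.03 in HC and from 11.75 to 12.17 in CSD mice. The 2 groups of Rmrp values overlapped, with a difference of 0.07 (SE 0.099, adjusted p = 0.900 in limma).

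Among Cajal body RNAs, the difference was seen in 1 of 3. Scarna13 ran from 9.75 to 10.22 on HC arrays (median 9.85) and from 9.92 to 10.51 on CSD arrays (median 10.22). Of the CSD arrays 3 lay above all HC arrays, and the other 3 lay among the HC values, CSD replicate 10 lowest. The means were 9.92 ± 0.19 and 10.22 ± 0.19 (SD, n = 6 each), a difference of 0.29 (SE 0.101, adjusted p = 0.436 in limma, exact permutation p = 0.0195). Leaving out HC replicate 5, HC replicate 6 or CSD replicate 7 brought it to 0.26, 0.26 and 0.24, under the fold limit. Scarna17 and Scarna8 had differences of 0.02 (SE 0.061) and 0.01 (SE 0.068).

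Snora73a and Snora73b, long H/ACA RNAs of 205 bases that act in the cleavage of precursor ribosomal RNA, had higher means on CSD arrays. Snora73b ran from 8.36 to 9.04 in HC (median 8.63) and from 8.83 to 9.22 in CSD mice (median 8.97). All 6 CSD arrays were above the HC mean, and the overlap came from HC replicate 1, the highest HC array. The difference was 0.32 (SE 0.098, adjusted p = 0.345 in limma, exact permutation p = 0.0173), and it kept an unadjusted p under 0.05 without each array in turn, with differences from 0.26 to 0.40. Without HC replicate 5 it was 0.26, just under the fold limit.

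Snora73a ran from 8.18 to 8.58 in HC (median 8.38) and from 8.44 to 8.77 in CSD mice (median 8.57). The groups overlapped, with 3 CSD arrays above all HC arrays. The difference was 0.22 (SE 0.070, adjusted p = 0.394 in limma, exact permutation p = 0.0173). Both RNAs lie in Snhg3 and are close relatives, so that their probes may share signal.

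Snora16a and Snora44, pseudouridylation guides that lie together in Snhg12, were also higher in mean. With values below noise raised to it, Snora16a had the largest difference of all members. Its HC arrays ran from 8.22 to 9.04 (median 8.43) and its CSD arrays from 8.55 to 9.39 (median 8.79). HC replicate 1 lay above 5 of the 6 CSD arrays and CSD replicate 7 was the highest of all. The difference was 0.35 with the widest error of the 5 (SE 0.157, adjusted p = 0.573 in limma), and the exact permutation p was 0.0758. The unadjusted limma p of Snora16a exceeded 0.05 when HC replicates 2, 3, 4, 5 or 6 or CSD replicates 2, 6 or 7 were left out, from 0.052 to 0.102, and the difference then lay between 0.24 and 0.37.

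Snora44 ran from 6.84 to 7.13 in HC (median 6.93) and from 7.09 to 7.50 in CSD mice (median 7.14). CSD replicate 7 stood apart at the top, and 3 CSD arrays exceeded all HC arrays. The difference was 0.24 (SE 0.076, adjusted p = 0.382 in limma, exact permutation p = 0.0152). Snhg12 and Snhg3 are neighbours on chromosome 4 with only Trnau1ap and Rcc1 between them in RefSeq (GRCm38.p6). Neither host, nor Snhg10, has a probe set kept here that names it alone, so that the hosts of these 5 RNAs were not measured.

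The other 16 Snora genes had an unadjusted p above 0.05. Snora74a, from the host Snhg4, had a difference of 0.15 (SE 0.095). Snora3, from Rpl27a, had one of 0.19 (SE 0.172) that rested on CSD replicate 7, which read 10.81 while the other CSD arrays ran from 9.59 to 9.83, and its second probe set gave 0.20. The lowest was Snora52, from Rplp2, at -0.14 (SE 0.161). CSD replicate 7 was the highest of the 12 arrays for 23 of the 56 members. The median Snora deviation from the HC mean was 0.36 on it and -0.08 to 0.09 on the other CSD arrays. Without it the Snora median was 0.03 and the Snord median -0.04, the Rprl median stayed at 0.27, and 2 members were higher past the limits, Snora73b and Rprl2.

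**Figure D3:**
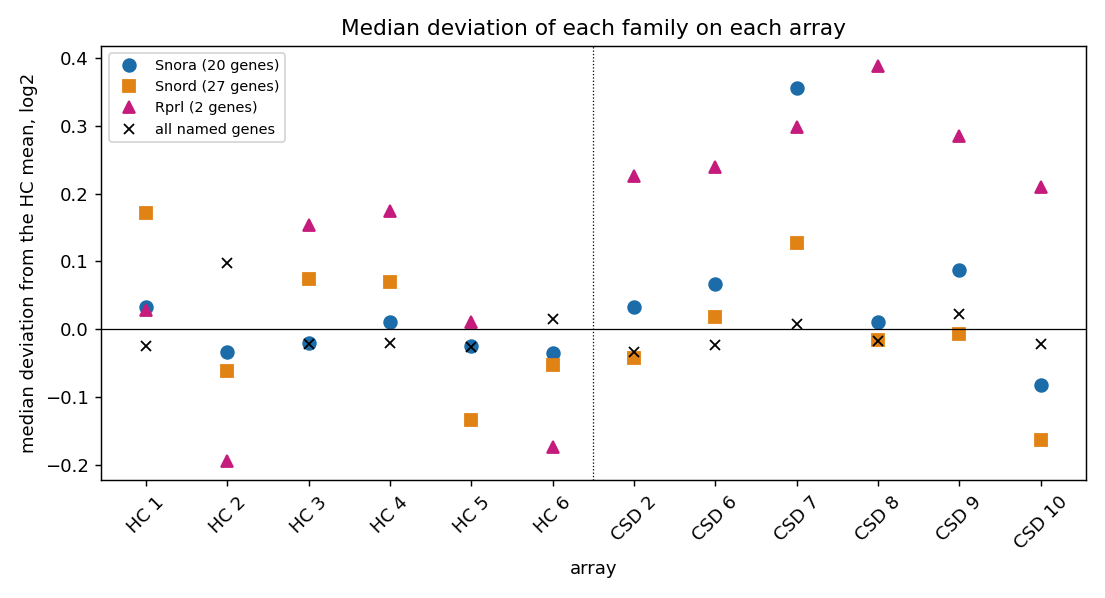
Median deviation from the HC mean (log2) of the Snora, Snord and Rprl families and of all named genes on each of the 12 arrays. CSD replicate 7 has the highest Snora median, 0.36, and all 6 CSD arrays lie above all 6 HC arrays only for the Rprl family, which holds 2 genes.

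Of the C/D box RNAs, Snord42a, from an intron of the ribosomal protein gene Rpl23a, was the 1 member lower at an unadjusted p under 0.05. Its HC arrays ran from 7.50 to 7.82 (median 7.63) and its CSD arrays from 7.32 to 7.55 (median 7.46). All 6 CSD arrays were below the HC mean and 4 were below every HC array. The difference was -0.20 (SE 0.059, adjusted p = 0.320 in limma, exact permutation p = 0.0108), short of the fold limit. Snord42b, from the same host, had a difference of 0.03 (SE 0.078), and Rpl23a itself had -0.005.

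The remaining 26 Snord genes had differences between -0.13 and 0.07 with errors that reached 0.257. Their values varied widely among HC mice. Snord49b ran from 9.37 to 10.96 in HC and from 9.78 to 10.77 in CSD mice, with an HC SD of 0.595, the largest of the members. Snord73b (0.504), Snord14e (0.503) and Snord33 (0.470) followed. Snord73b and Snord33, guides from the ribosomal protein genes Rps3a1 and Rpl13a, were lowest on HC replicates 5 and 2, and Snord49b was lowest on replicates 2 and 5. Snord14e, from the heat shock gene Hspa8, ran differently, since its lowest HC arrays were replicates 1 and 3, at 8.89 and 9.08, and replicates 6 and 2 were highest, the former at 10.16. The median HC SD was 0.160 over the members and 0.104 over named genes, and 22 of 56 members had an HC SD above that of 90% of named genes. The HC SD exceeded the CSD SD in 37 of 56 members, 22 of them Snord genes, and in 73.3% of named genes.

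With values below noise raised to it, the small nuclear RNAs that were measured had small differences. Rnu12, of the minor spliceosome, differed by 0.02 (SE 0.053). Rnu3a, a U3 RNA that takes part in the cleavage of precursor ribosomal RNA, differed by 0.03 (SE 0.078). Rnu7, which acts at the ends of histone mRNAs, was at the noise level on 9 of 12 arrays, all 6 HC arrays among them, so that its difference of 0.05 rests on 3 CSD arrays. With its deposited values below noise it was 0.41 (unadjusted p = 0.003 in limma), above the 0.35 of Snora16a. Its difference therefore depended on the floor.

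The rule left out 61 probe sets, 56 of them kept after the filter, that name a gene of these families together with other genes. They hold 27 distinct sets of values, since near-identical copies share probes, and 18 probe sets of the Snord116 cluster carry the same values with a difference of -0.11 (unadjusted p = 0.297 in limma). Without the fold limit 6 of the 56 were higher (10.7%) and 5 lower at an unadjusted p under 0.05 in limma. Among all probe sets kept these shares were 3.35% and 5.08%. With the fold limit none was higher and 4 were lower (7.14%), against 0.741% and 0.62% of all probe sets kept. Probe sets with the same values are each counted here. The 4 that were lower are a single set of values shared by Rnu3b1 to Rnu3b4, further U3 RNA genes, chosen after their values were seen, with means of 8.49 in HC and 8.20 in CSD and a difference of -0.29 (SE 0.082, adjusted p = 0.313 in limma). Rnu3a did not share this difference in value, and whether these differ was not tested.

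The other 6 genes of the families stayed below noise, with Snord61 nearest to it at a highest value of 5.64, then Snord52 at 5.50, Snord38a at 5.35, Rnu5g at 5.19, Snord58b at 4.71 and Rnu6 at 3.67. Just above it were Snord73a, whose highest value was 5.89, Rnu7 at 5.94 and Snord37 at 5.98. Measured levels otherwise spread from means of 5.77 to 11.90. The probes of different RNAs bind with different strength, so no level was set against another.

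Of the 56 RNAs 49 lie within another gene in RefSeq (GRCm38.p6, containment without regard to strand), in 43 different genes. Of these hosts 25 were measured. None had an unadjusted p under 0.05 in limma, against 1.89% higher and 6.52% lower among named genes, and their differences ran from -0.11 to 0.12 with a median of 0.01. The 5 Snora genes within long non-coding genes all had higher CSD means, with a median of 0.24. Among them are Snora73a, Snora73b, Snora16a and Snora44, given above, from the neighbours Snhg3 and Snhg12, so this group adds no further call. The 15 Snora genes within protein-coding genes had 10 higher and a median of 0.04. Among Snord genes the same division gave 2 of 7 higher with a median of -0.03, and 10 of 19 with a median of 0.01. This division was made after the values were seen and is a description.

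Differences also varied with RNA length, again looked at after the values were seen. Spearman's rho between length and difference was 0.46 and Pearson's r 0.61 over the 56 RNAs, which share their arrays and, for several, their hosts and sequence. Within families rho was 0.33 over 20 Snora and 0.39 over 27 Snord genes, whose median lengths were 125 and 73 bases. All 7 RNAs over 200 bases had higher CSD means, with a median of 0.27. They were Rprl1, Rprl2, Scarna13, Snora73a, Snora73b, Rnu3a and Rmrp. Of these, 4 were higher past the unadjusted limits (57.1%), against 0.0793% of named genes and 0.741% of all probe sets kept. The 4 are among the 5 higher members given above, the Rprl pair included, so this group adds no further call. The 23 RNAs of 100 to 200 bases had a median of 0.02 and the 26 shorter ones -0.02.

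**Figure D4:**
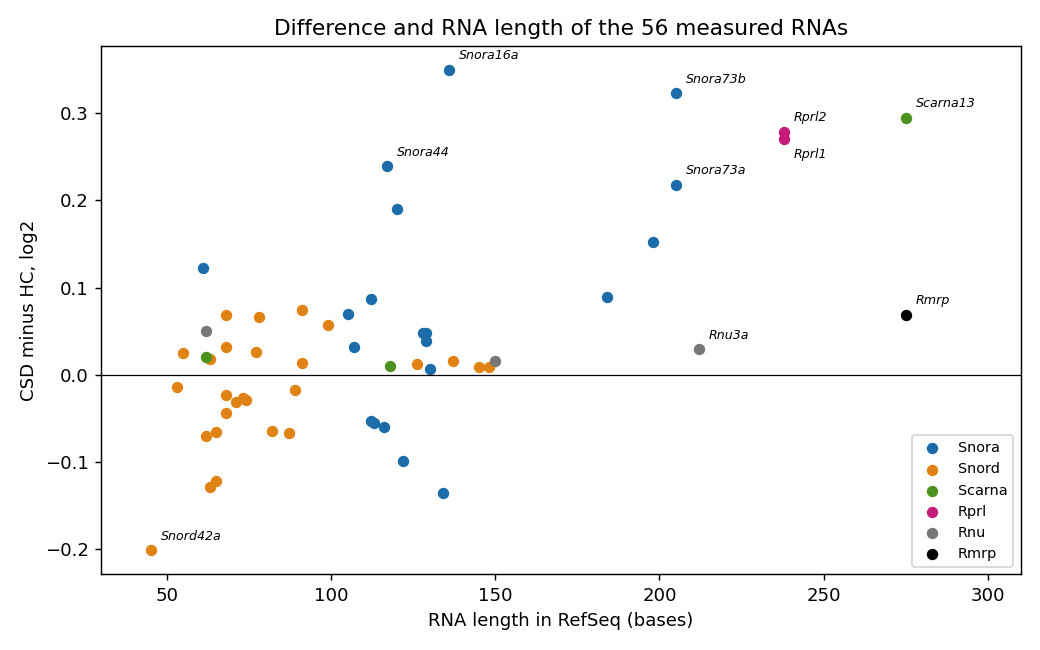
Difference between CSD and HC means (log2) against RNA length in RefSeq (bases) for the 56 measured RNAs, coloured by family. The 7 RNAs over 200 bases all lie above 0, and the 26 RNAs under 100 bases lie on both sides, with 12 means higher and 14 lower.

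Transcripts for the proteins that work with these RNAs differed little. The arrays read RNA, so protein names below stand for the transcripts of their genes, and no protein was measured. No gene of the lists that follow was called at an adjusted p in limma, and no kept probe set of the series was. None passed the unadjusted p with the fold limit, against 0.0793% higher and 0.6% lower among named genes. Among the 10 measured genes for proteins of C/D particles and their assembly, 8 means were lower and the median was -0.05. At an unadjusted p under 0.05 limma placed 3 of them lower, against 6.52% of named genes. Ruvbl2, an ATPase of the assembly machinery, ran from 8.67 to 8.94 in HC and from 8.58 to 8.63 in CSD mice, with no overlap between groups. Its difference was -0.14 (adjusted p = 0.402 in limma, exact permutation p = 0.00216). Nufip1, an assembly factor, differed by -0.08 (adjusted p = 0.529), and Fbl, the methyltransferase fibrillarin, by -0.12 (adjusted p = 0.554, limma), Fbl being named after its values were seen.

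Of the 6 genes for proteins of H/ACA particles 3 means were higher and 3 lower, with a median of 0.00. None had an unadjusted p under 0.05 in limma. Dkc1, the pseudouridine synthase, differed by -0.06 and Naf1, an assembly factor, by 0.06. The 11 genes for Cajal body and cap proteins had a median of -0.02. In limma 1 was higher at an unadjusted p under 0.05, Gemin2 of the SMN complex at 0.10, and none lower. These are 9.09% and 0%, against 1.89% and 6.52% of named genes. A single gene of 11 is little to set against these shares. Nolc1, a nucleolar and Cajal body chaperone, stood at -0.06.

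The 11 genes for proteins of RNase P and MRP had a median of -0.03. At an unadjusted p under 0.05 in limma 1 was lower and 1 higher (9.09% each, against 6.52% lower and 1.89% higher among named genes). Rpp25 had a difference of -0.14 (unadjusted p = 0.016 in limma, exact permutation p = 0.0108). Pop5 had one of 0.12 (unadjusted p = 0.047 in limma, exact permutation p = 0.0563, and 0.055 by the methods' t-test), so that its place past 0.05 depended on the test. Of 26 measured genes for subunits and factors of RNA polymerase III and snRNA promoters, 20 means were lower, with a median of -0.03. In limma 2 were lower and 1 higher at an unadjusted p under 0.05. These are 7.69% and 3.85% of the list, close to the 6.52% and 1.89% of named genes. The lower ones were Polr3k, a subunit of the polymerase, at -0.15 and Gtf3c6, a subunit of transcription factor TFIIIC, at -0.14, and the higher one was Polr3gl, a further polymerase subunit, at 0.10, named after its values were seen. The 22 genes for spliceosomal proteins had a median of -0.01. Snrpb2 at -0.11 was the 1 lower gene (unadjusted p = 0.045 in limma, 4.55% of the list against 6.52% of named genes). Snrnp48 stood at 0.09.

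Non-coding host genes had 6 of 9 means higher and a median of 0.02. Meg3, an imprinted non-coding gene, was the 1 gene of 9 higher at an unadjusted p under 0.05, against 1.89% of named genes (0.10, exact permutation p = 0.0130), and its neighbour Rian, which hosts many C/D box RNAs, differed by 0.15 (exact permutation p = 0.134). The 27 coding host genes had a median of -0.001 with none at an unadjusted p under 0.05, with Rpsa at 0.08 and Dkc1, also a host, as above. Of 6 other small structured RNAs, Rpph1 among them, 4 means were higher with a median of 0.02, and Vaultrc5, the vault RNA, stood at -0.18 (SE 0.157).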

How the data were processed

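The mPFC of 6 HC and 6 CSD mice was profiled. The deposited values are on the log2 scale and were made by the authors with RMA in Affymetrix Expression Console (versions not given in the sources used here). RMA corrects for background, normalizes arrays to each other and combines the probes of a set. Medians of the deposited arrays still ran from 7.50 (HC replicate 6) to 7.69 (HC replicate 2), so differences between whole arrays remained. The table has 12 arrays and 35556 probe sets, and 0 columns were left aside. The methods name no value for system noise, and the 20th percentile of all values (5.75) took its place. Probe sets with no value above it were dropped (5718) and lower values were raised to it in the 29838 kept. In the platform annotation of 2016 a single gene is named for 21789 probe sets, several genes for 1621 and none for 12146, and the brightest probe set stood for a gene. Of the members 5 had a further kept probe set, and 3 of these held identical values.

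Linear models were fitted with limma 3.58.1 (R 4.3.3, lmFit, then eBayes, two-sided, no covariate), with Benjamini-Hochberg adjustment over every kept probe set, after a check on simulated data. Single genes were compared with exact permutation tests over 924 splits of 12 arrays. The members, lists and rule for named genes were chosen with earlier results of these data known. The rule took all Scarna, Rprl, Rnu and Rmrp members, the Snora and Snord members with the 5 smallest p in each direction and the 2 brightest, members whose groups do not overlap, and the 2 genes of smallest p in each of 9 lists (proteins of C/D particles, of H/ACA particles, of Cajal bodies and caps, of RNase P and MRP and of spliceosomal particles, RNA polymerase III and snRNA promoter factors, non-coding and coding host genes, and other small structured RNAs). Not all Snora and Snord members that it took are described singly. Those left out, such as Snord85, Snord57 and Snora75, lie within the ranges given for their families. Others, such as Snora3 and Snora74a, fall outside the rule and are named to show a range, a host, an array or a counted gene. Hosts, neighbours and RNA lengths come from RefSeq (GRCm38.p6), and the array's own build is not named. Alternatives were the methods' t-test, other fold limits, no filter, no floor, probe sets limited to those with 1 gene, arrays centred on medians, noise 1 log2 unit higher, quantile normalization, a mean-variance trend, array weights, a replicate block, the mean over probe sets, and each array left out. Plots were made in Python 3.11.15 with matplotlib 3.10.9.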

Additional observations from a re-analysis of the deposited data

Results flagged for a closer look

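In 10 of 107 groups of 6 values examined, the highest or lowest array stood far from the others (gap to the nearest value over the group's whole range, above Dixon's limit of 0.625). Chance alone gives about 1 in 20 where no value was raised to noise. Snora2b and Rnu7, both counted among the 10, had values raised to noise. CSD replicate 7 was the highest of its group for Snora44 (7.50 against 7.09 to 7.23, gap ratio 0.656), for Snora69 (7.71 against 6.99 to 7.21, ratio 0.701) and for the median over the Snora genes (7.69 against 7.34 to 7.46, ratio 0.651). CSD replicate 8 was the lowest for Snora23 (9.45 against 9.89 to 10.12, ratio 0.659), for the RNase P protein gene Rpp25 (8.90 against 9.07 to 9.17, ratio 0.645) and for the polymerase III subunit gene Polr3k (9.22 against 9.37 to 9.40, ratio 0.815). HC replicate 3 was the lowest for Rpp25 (9.11 against 9.23 to 9.29, ratio 0.682). HC replicate 2 was the highest for Ruvbl2 (8.94 against 8.67 to 8.75, ratio 0.709) and the only HC array above noise for Snora2b (5.754 against 5.747, ratio 1). All other HC values of Snora2b stood at the floor, which fixed its ratio at 1 however small the gap. CSD replicate 9 was the highest for Rnu7 (5.94 against 5.75 to 5.80, ratio 0.704), a gene near noise.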

How the results depend on the processing

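No member had an adjusted p under 0.05 with the fold limit under any alternative run, with the smallest adjusted p between 0.127 and 1 over them. The 5 members higher at an unadjusted p became 0 with a fold limit of 1.5, 3 with arrays centred on their medians, 0 with array weights and 2 with HC replicates 2 and 6 both left out, which was chosen after seeing the data. With no floor they became 6, Rnu7 being added. With array weights all of the 5 but Snora16a still had an unadjusted p under 0.05 and missed the fold limit. Leaving out each array gave 1 to 6 (1 without HC replicate 6, 2 without HC replicate 2, HC replicate 5 or CSD replicate 7, 3 without CSD replicate 8) and left the adjusted calls and the lower members at 0. The 0 lower members became 1 with no fold limit (Snord42a) and 1 with the replicate block (Snord14e). Leaving out each array, the median difference ran from 0.03 to 0.09 for Snora, from -0.04 to 0.02 for Snord, from -0.01 to 0.06 for Scarna, from 0.24 to 0.31 for Rprl and from 0.0003 to 0.05 for Rnu. The replicate numbers 2 and 6 occur in both groups. Deviations of same-numbered arrays correlated at -0.21 and -0.04, and those of differently numbered arrays at 0.03 and 0.17. With only 2 shared numbers, these values cannot decide whether the numbers pair the mice, and the main fit used no pairing. The replicate block, with 1 residual degree of freedom, gave 6 higher members, 4 of them shared, and moved the Rprl median to 0.42. Of the values recomputed, 1123 kept direction and side or moved by less than the spread, 33 no longer passed, 4 newly passed and 11 moved. Of the differences and medians, 53 changed sign, none of them a difference of the 5 members past the limits. The block held 9 of the changes, among them Pop5 (0.12 to -0.09), Snora52 (-0.14 to 0.12), the Scarna median (0.02 to -0.04) and the Snord median (-0.01 to 0.06). Depth is not defined for arrays, and Rnu7 and 4 other members had values at noise.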
